A study of Mus musculus with 40 samples.

Results

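The Hox genes of the mouse mammary gland were followed through its main cell populations, and the RNA of most of them was measured in the stroma and almost none of it in the epithelium. The members are all genes whose mouse symbol is Hox, a cluster letter from a to d and a number, found by matching the Ensembl IDs of both count tables to symbols. The annotation holds 39 such genes, of which 38 had a row in the adult table of 25044 genes and 35 in the pubertal table of 24268 genes. *Hoxd12* was in neither table, and *Hoxb13*, *Hoxc12* and *Hoxd13* were in the adult table only. In GENCODE M21 (GRCm38) the 11 Hoxa genes lie on chromosome 6 (minus strand) and the 10 Hoxb genes on chromosome 11 (96194316 to 96368256, plus strand). The 9 Hoxc genes lie on chromosome 15 (102921103 to 103036852, plus strand) and the 9 Hoxd genes on chromosome 2 (74668310 to 74765142, plus strand).

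All mice were wildtype FVB/N females. Fibroblasts (sorted non-adipose stromal cells, negative for EpCAM and CD49f), adipocytes (the fat fraction separated by centrifugation of the digested gland), basal cells and luminal cells (epithelial cells sorted by their EpCAM and CD49f levels) were each sequenced in 2 adult libraries for proestrus, estrus, metestrus and diestrus and in 2 pubertal libraries, 40 in all. Each adult library came from a pool of 2 or 3 mice aged 14 to 16 weeks, and each pubertal one from 4 mice taken between postnatal days 34 and 36. Within a stage, number 1 was meant for earlier and number 2 for later mice by vaginal cytology and histology, or, where these were unclear, mice were assigned by cell number. The adult and pubertal libraries were sequenced in separate runs, so that age and run cannot be told apart. The thoracic and inguinal glands (#3 and #4) of a mouse were combined before digestion, and a library therefore mixes body levels. The libraries are bulk RNA, in which fewer cells of a type and less RNA per cell cannot be told apart.

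Hox proteins are homeodomain transcription factors that give cells their position along the body axis. The genes of a cluster are switched on in the order in which they lie, the low numbers (anterior, 3′ end) earlier and further to the head than the high numbers (posterior, 5′ end), and genes with the same number in different clusters are paralogs. Fibroblasts and adipocytes keep a regional Hox pattern in the adult, Polycomb complexes hold the genes silent in cells that do not use them, and Pbx and Meis proteins bind DNA together with Hox proteins. In mice, *Hoxc8* is one of the genes expressed where the mammary buds arise, and *Hoxa9*, *Hoxb9* and *Hoxd9* are jointly needed for the growth of the gland in pregnancy.

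Adult libraries held 8991222 to 22760563 gene counts (median 16983304), and pubertal libraries 11774264 to 19033586 (median 16807692). CPM (counts scaled to a common depth on the TMM-scaled library size) is used to compare a gene between libraries, and RPKM (CPM per kilobase of summed exons) to compare levels between genes. In the adult libraries the summed CPM of 10 fibroblast markers was 18800 to 49200 in fibroblasts, 3620 to 7600 in adipocytes, 178 to 335 in basal cells and 109 to 533 in luminal cells. The 10 adipocyte markers summed to 227 to 743 CPM in fibroblasts and 7764 to 33850 CPM in adipocytes, and none of these markers was without counts in any population. The adipocyte library of diestrus replicate 2 stood apart, with 1947 CPM of 7 epidermal markers, 4419 CPM of 10 basal markers and the lowest adipocyte marker sum, 7764 CPM. The pubertal adipocyte replicate 2 held 939 CPM of the epidermal markers and 2546 CPM of the basal markers. The other 8 adipocyte libraries held 20.4 to 255.9 CPM of the epidermal markers.

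Stromal cells carried the Hox RNA of all 4 clusters, and epithelial cells carried little beyond the anterior end of the Hoxb cluster. Summed over all members, the adult libraries held 44.5 ± 7.26 RPKM in fibroblasts, 65.3 ± 12.6 RPKM in adipocytes, 3.40 ± 0.505 RPKM in basal cells and 5.20 ± 0.436 RPKM in luminal cells (SD, n = 8 each). In fibroblasts the sum was 49.1 to 52.0 RPKM in the 4 libraries numbered 2 and 36.5 to 40.9 RPKM in the 4 numbered 1, without overlap, and for the Hoxa cluster 10.2 to 11.6 RPKM against 5.68 to 7.36 RPKM. In adipocytes replicate 2 was the higher in 2 of 4 stages, in basal cells in 3 and in luminal cells in 0. In fibroblasts the Hoxc cluster made up 36.2% of this sum, Hoxb 31%, Hoxa 19% and Hoxd 13.9%. In adipocytes Hoxc made up 46.7%, Hoxa 29.8%, Hoxb 17.3% and Hoxd 6.27%. The Hoxb cluster alone made up 95.3% in basal cells and 98.6% in luminal cells. At puberty the sums were 37.2 ± 3.10 RPKM in fibroblasts, 42.7 ± 2.82 RPKM in adipocytes, 4.23 ± 0.280 RPKM in basal cells and 4.39 ± 0.339 RPKM in luminal cells (SD, n = 2 each), and the Hoxb cluster again made up 93.5% in basal cells and 99.2% in luminal cells.

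**Figure D1:**
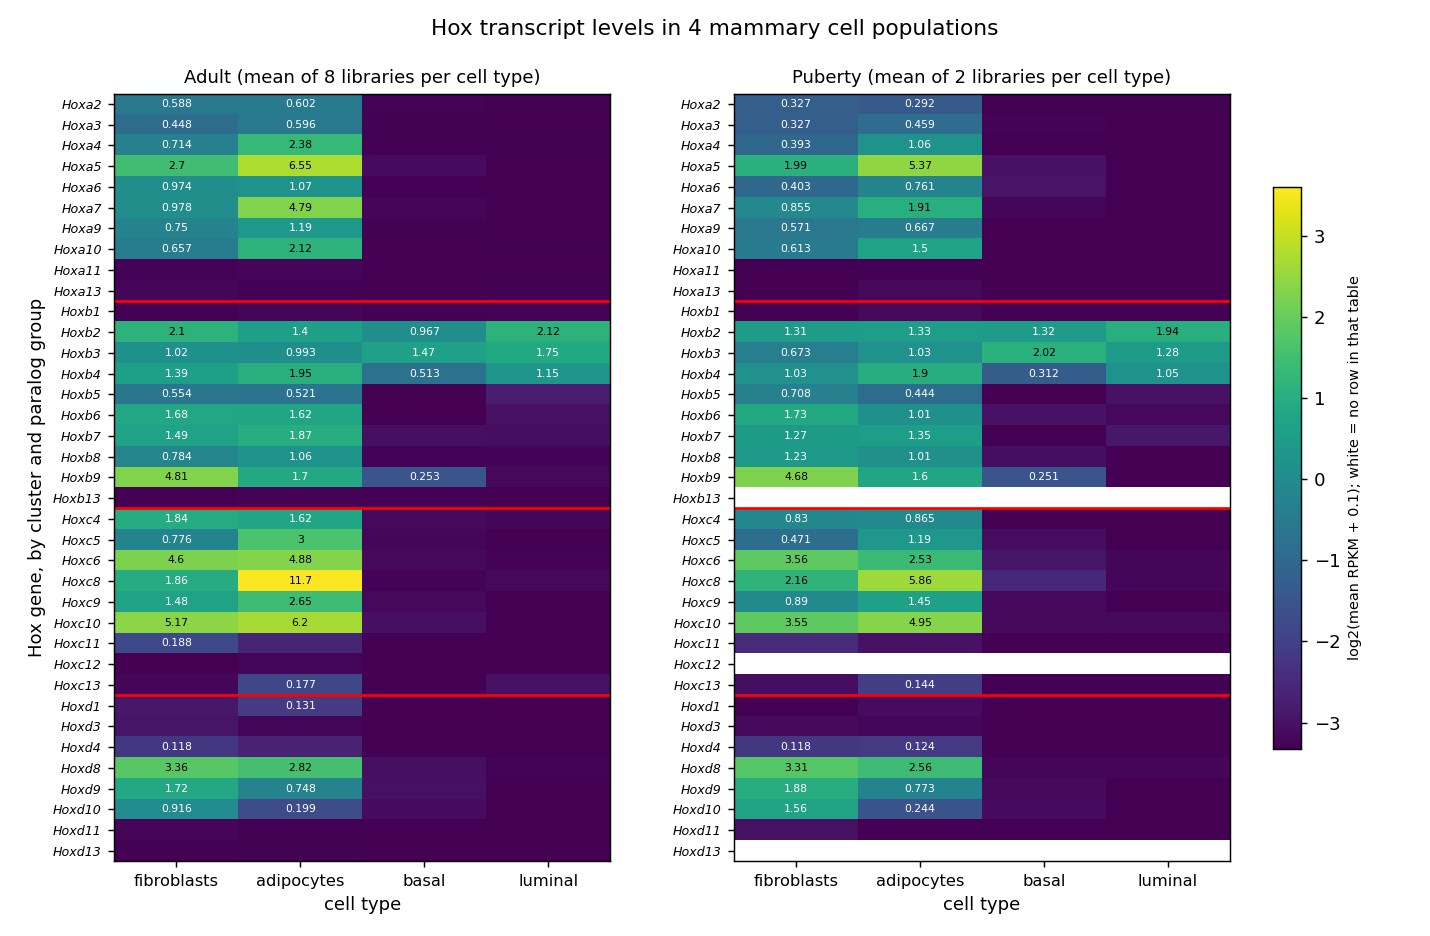
Mean RPKM of Hox genes (rows, by cluster and paralog number, with red lines between clusters) in fibroblasts, adipocytes, basal and luminal cells (columns), for adult libraries (left, n = 8 per cell type) and pubertal libraries (right, n = 2), coloured by log2(mean RPKM + 0.1), with values printed from 0.1 RPKM upward and rows absent from a table in white. Colour fills most rows between the anterior and posterior ends of each cluster in fibroblasts and adipocytes, while in the adult basal and luminal columns the values printed are those of *Hoxb2*, *Hoxb3*, *Hoxb4* and, in basal cells, *Hoxb9*.

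In both stromal populations paralog groups 1 and 11 to 13 were lowest, while the highest groups differed in part. At 1 RPKM or more stood 14 of 38 genes in adult fibroblasts and 19 in adult adipocytes, and at 0.1 RPKM or more stood 28 in each. Summed by paralog group, RPKM in fibroblasts was highest in group 9 (8.76), group 6 (7.25) and group 10 (6.74), and in adipocytes in group 8 (15.6), group 5 (10.1) and group 10 (8.52). For group 11 it was 0.2 in fibroblasts and 0.0718 in adipocytes. Group 13, the posterior end, summed to 0.0184 RPKM in fibroblasts and 0.185 RPKM in adipocytes, and its level in adipocytes came from 1 library.

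That library was diestrus replicate 2, with 60 of the 61 *Hoxc13* counts of the adult adipocytes (3.41 CPM) and the 1947 CPM of epidermal markers given above. *Hoxc13* is a gene of hair follicles and nails, and it stood at 0.707 CPM in the pubertal adipocyte replicate 2, the other library with high epidermal markers. In luminal cells all 10 *Hoxc13* counts of the adult libraries fell in diestrus replicate 2 (0.458 CPM), where the epidermal markers were 96.4 CPM, within the 60.3 to 111 CPM of all adult luminal libraries. The part of skin RNA in these *Hoxc13* values was not tested.

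Members differed widely in level within the stroma. The highest in adult fibroblasts was *Hoxc10* (5.17 ± 1.68 RPKM), followed by *Hoxb9* (4.81 ± 1.09 RPKM), *Hoxc6* (4.60 ± 1.62 RPKM) and *Hoxd8* (3.36 ± 0.578 RPKM), and the first 3 differed by less than their SD (n = 8). In adult adipocytes *Hoxc8* stood first at 11.7 ± 2.95 RPKM, before *Hoxa5* (6.55 ± 3.06 RPKM), *Hoxc10* (6.20 ± 1.63 RPKM), *Hoxc6* (4.88 ± 0.881 RPKM) and *Hoxa7* (4.79 ± 1.25 RPKM). *Hoxc8* had a library range of 6.50 to 16.9 RPKM there and was, by its mean, the only member above 10 RPKM in any adult population. The genes without any count were 4 of 38 in fibroblasts (*Hoxb1*, *Hoxb13*, *Hoxc12*, *Hoxd13*) and 2 in adipocytes (*Hoxa13*, *Hoxd11*), against 15 in basal cells and 17 in luminal cells.

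**Figure D2:**
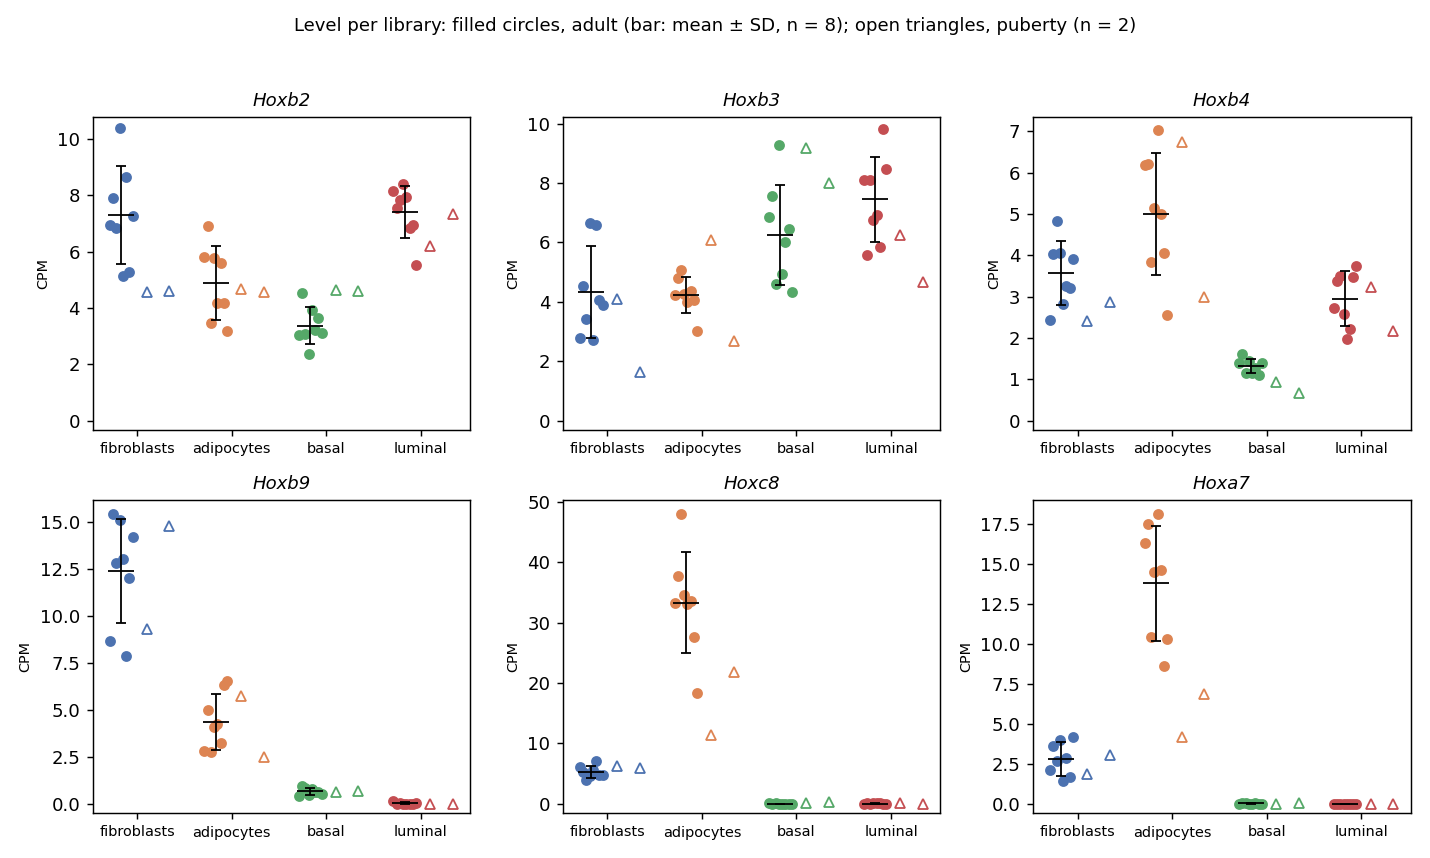
CPM of 6 Hox genes in each library of the 4 cell types on linear axes, with filled circles for adult libraries (bars, mean and SD, n = 8) and open triangles for pubertal libraries (n = 2). *Hoxb2*, *Hoxb3* and *Hoxb4* are above 0 in all 40 libraries, *Hoxb9* is low in basal and near 0 in luminal cells, and *Hoxc8* and *Hoxa7* are at or near 0 in all basal and luminal libraries.

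To compare stroma with epithelium, the mean of adult fibroblasts and adipocytes was set against the mean of adult basal and luminal cells. The low-count filter, more than 1 CPM in at least 2 libraries, left 26 of the 38 genes. edgeR called 25 of these 26, 24 higher and 1 lower in the non-epithelial cells, while of all 15077 genes tested 81.6% were called and 41.5% were called higher. The median log2 fold change was 7.44 for the members tested and 0.02 for all genes. A gene could pass the filter on its stromal level alone, which had to raise this median and both counts of calls, also at puberty. At puberty 22 of 24 tested members were called, all higher in non-epithelial cells, where 46.3% of all genes were called and 27.3% were called higher.

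The raw counts show how little Hoxa, Hoxc and Hoxd RNA the epithelial libraries held. *Hoxc8* had 4389 counts in the 16 adult non-epithelial libraries and 8 in the 16 epithelial libraries, a pooled ratio of CPM of 810 (95% exact interval for counting error 411 to 1880). *Hoxc10* had 2422 against 6 counts, a ratio of 596 (273 to 1630), and *Hoxc6* had 2567 against 7, a ratio of 541 (262 to 1350). *Hoxa5*, which in human breast cells is known to act on the gene for p53, had 1952 against 4 counts, a ratio of 721 (281 to 2650). *Hoxa6* had 208 counts against 0 and was at least 102-fold higher, with 3 counts over the 16 epithelial libraries as the floor. In the same way *Hoxc11* was at least 28.1-fold, *Hoxd4* at least 30.5-fold and *Hoxd1* at least 17.2-fold higher in the non-epithelial libraries. *Hoxd4* shares 52.3% of its exon length with *Hoxd3* and *Gm28230* on the same strand, and *Hoxd3* shares 62.3% with *Hoxd4* and *Gm28230*. How reads in shared exons were counted is not given in the sources used here, so that the levels of *Hoxd3* and *Hoxd4* may be too low.

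As a share of the fibroblast level, the trace in the epithelium was small and alike for most genes. In basal cells the members of the Hoxa, Hoxc and Hoxd clusters tested stood at 0 to 1.75% of their mean CPM in fibroblasts, and the fibroblast markers at 0.663%. In luminal cells they stood at 0 to 0.647%, and the fibroblast markers at 0.609%. The part of stromal RNA in these low values was not tested.

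The Hoxb cluster was the exception, in its anterior genes, in *Hoxb9* in basal cells and in *Hoxb5* in luminal cells. *Hoxb5* stood at 7.86% of its fibroblast level in luminal cells, from 22 counts, and at 0.355% in basal cells, and *Hoxb6*, *Hoxb7* and *Hoxb8* at 0 to 1.52% in either. *Hoxb2* was at 7.31 ± 1.74 CPM in fibroblasts, 4.89 ± 1.32 CPM in adipocytes, 3.37 ± 0.665 CPM in basal cells and 7.41 ± 0.935 CPM in luminal cells (SD, n = 8 each). Its difference between non-epithelial and epithelial cells was 0.20 on the log2 scale (SE 0.11) and was not called (edgeR, adjusted p = 0.0987). *Hoxb3* was the one member lower in the non-epithelial cells: it had 4.33 ± 1.54 CPM in fibroblasts and 4.22 ± 0.613 CPM in adipocytes, against 6.26 ± 1.67 CPM in basal and 7.46 ± 1.43 CPM in luminal cells, a log2 fold change of -0.72 (SE 0.13, edgeR adjusted p = 4.73e-05).

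*Hoxb4*, known in mice for its role in blood stem cells, was higher in the non-epithelial cells by 1.03 on the log2 scale (SE 0.11, edgeR adjusted p = 1.39e-08). It had 3.57 ± 0.778 CPM in fibroblasts and 5.0 ± 1.47 CPM in adipocytes, against 1.32 ± 0.179 CPM in basal and 2.95 ± 0.665 CPM in luminal cells. The epithelial level dropped at the next gene of the cluster. *Hoxb5* had 324 counts in the adult non-epithelial and 23 in the epithelial libraries, a pooled ratio of 20.8 (13.6 to 33.3), and from *Hoxb6* to *Hoxb8* the ratios were 88.9 to 205. *Hoxb1*, the neighbour on the other side of *Hoxb2*, had 2 counts in the non-epithelial and 3 counts in the epithelial libraries.

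The annotated antisense transcript *Hoxb3os* overlaps 52.9% of the exon length of *Hoxb3* and 27.3% of that of *Hoxb2*. The libraries were stranded, but the strand setting of the counting is not given in the sources used here, so that the *Hoxb2* and *Hoxb3* values may include antisense reads. *Hoxb3os* was, like *Hoxb3*, lower in the non-epithelial cells (log2 fold change -0.49, SE 0.16, edgeR adjusted p = 0.00749), and its part in the *Hoxb3* call was not tested. It was at 0.995 ± 0.444 CPM in fibroblasts, 1.83 ± 0.471 CPM in adipocytes, 1.79 ± 0.558 CPM in basal and 1.80 ± 0.316 CPM in luminal cells (SD, n = 8 each).

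Pubertal glands, from other mice and another run, showed the same anterior Hoxb genes in the epithelium. *Hoxb2* was at 4.57 ± 0.0220 CPM in fibroblasts, 4.63 ± 0.0823 CPM in adipocytes, 4.62 ± 0.0226 CPM in basal cells and 6.77 ± 0.814 CPM in luminal cells (SD, n = 2 each). *Hoxb3* had 1.63 and 4.09 CPM in fibroblasts and 2.67 and 6.09 CPM in adipocytes, against 8.02 and 9.17 CPM in basal and 4.68 and 6.24 CPM in luminal cells. All 4 epithelial libraries lay above the fibroblasts, but not above both adipocyte libraries, and the log2 difference of -0.94 was not called (edgeR, adjusted p = 0.0683).

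Within the epithelium, basal and luminal cells differed in *Hoxb9* and in the level of the anterior Hoxb genes. In the adult libraries edgeR called 5 of 26 tested members, all of them Hoxb genes, where 73.6% of all genes were called. These shares cannot be compared, since 20 of the 26 had at most 9 counts in either cell type, passed the filter through the stroma and had p of 0.999 or above. DESeq2 also called 5, with *Hoxc10* in place of *Hoxb6*. *Hoxb9* was higher in basal cells, with 0.652 ± 0.178 CPM and 97 counts in 8 of 8 basal libraries, against 5 counts in the 8 luminal libraries (log2 fold change 4.74, SE 0.48, edgeR adjusted p = 2.52e-08). The lowest basal library (0.434 CPM) lay above the highest luminal library (0.132 CPM), and *Hoxb9* was higher in basal cells in 8 of 8 pools of mice. At puberty it had 25 basal counts (0.618 and 0.672 CPM) and 0 luminal counts, and it was called again (edgeR, adjusted p = 0.00533), where 37.2% of all genes were called.

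*Hoxb9* stood at 5.26% of its fibroblast level in basal cells, against 0.663% for the fibroblast markers. *Hoxc10*, *Hoxc6* and *Hoxd8*, which fibroblasts held at 9.21 to 11.1 CPM, lay below *Hoxb9* in 8 of 8 adult basal libraries. *Hoxb2* and *Hoxb4* were lower in basal than in luminal cells, each by a log2 fold change of -1.08 (SE 0.15), and neither gene had overlapping ranges. For *Hoxb2* these were 2.37 to 4.55 CPM in basal and 5.54 to 8.41 CPM in luminal libraries, with adjusted p = 1.92e-06 by edgeR. For *Hoxb4* they were 1.11 to 1.62 CPM in basal and 1.97 to 3.75 CPM in luminal libraries, with adjusted p = 1.81e-06. *Hoxb4* was also lower in pubertal basal cells, with 0.672 and 0.927 CPM against 2.16 and 3.24 CPM in luminal cells (log2 fold change -1.79, SE 0.51, edgeR adjusted p = 0.0255). This pubertal call was lost without either basal library and without luminal replicate 1.

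The 2 further calls rested on very few reads. *Hoxb5* had 1 count in basal and 22 in luminal cells (edgeR, adjusted p = 0.0012), and *Hoxb6* had 0 in basal and 8 in luminal cells (edgeR, adjusted p = 0.00909). Without luminal estrus replicate 1 both calls were lost and 3 members remained. *Hoxb3* had a log2 difference of -0.19 (SE 0.18) that was not called (edgeR, adjusted p = 0.355).

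Between the stromal populations the clusters parted: the Hoxa and Hoxc genes that were called were lower in fibroblasts than in adipocytes, and the Hoxd genes that were called were higher. Of the 26 tested members edgeR called 12 in the adult libraries, 4 higher and 8 lower in fibroblasts, where 78.4% of all genes were called. The share of the tested members called was 46.2%, and the difference between these shares was not tested. The median log2 fold change was -0.11 for the members and -0.02 for all genes. Lower in fibroblasts were 4 of 9 tested Hoxa genes (*Hoxa4*, *Hoxa5*, *Hoxa7*, *Hoxa10*), 3 of 6 Hoxc genes (*Hoxc5*, *Hoxc8*, *Hoxc9*) and *Hoxb4*. Higher in fibroblasts were 2 of 3 Hoxd genes (*Hoxd9*, *Hoxd10*) and 2 of 8 Hoxb genes (*Hoxb2*, *Hoxb9*).

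**Figure D3:**
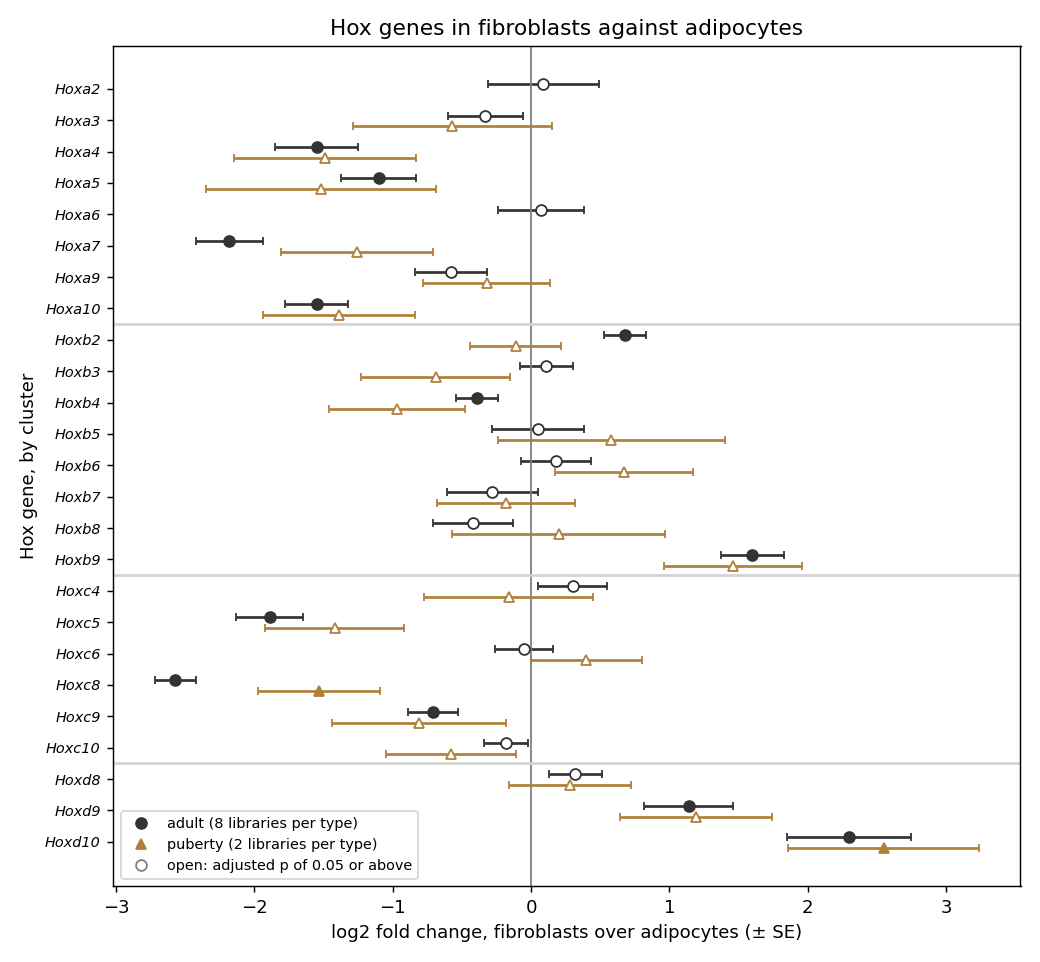
log2 fold change of fibroblasts over adipocytes for Hox genes, by cluster and paralog number, in adult libraries (black circles) and pubertal libraries (brown triangles), with bars of 1 SE and filled symbols for genes called by edgeR. The adult values run from -2.57 for *Hoxc8* to 2.30 for *Hoxd10*, and no filled symbol of the Hoxa or Hoxc cluster lies above 0.

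*Hoxc8* gave the most significant of these differences. Its fibroblast libraries had 6.08 and 5.32 CPM in proestrus, 3.90 and 4.55 in estrus, 5.53 and 7.01 in metestrus and 4.82 and 4.84 in diestrus. The adipocyte libraries had 33.3 and 37.7 CPM in proestrus, 47.9 and 34.5 in estrus, 33.0 and 33.6 in metestrus and 27.6 and 18.4 in diestrus. Every adipocyte library lay above every fibroblast library, the lowest being the diestrus library with epidermal markers. The log2 fold change was -2.57 (SE 0.15, edgeR adjusted p = 3.25e-11). At puberty *Hoxc8* was again lower in fibroblasts, with 6.33 and 5.91 CPM against 11.4 and 21.8 CPM in adipocytes (log2 fold change -1.53, SE 0.44, edgeR adjusted p = 0.0322), where 28.4% of all genes were called.

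*Hoxa7* had 1.41 to 4.19 CPM (median 2.77) in adult fibroblasts and 8.64 to 18.1 CPM (median 14.5) in adult adipocytes, a log2 fold change of -2.18 (SE 0.24, edgeR adjusted p = 5.39e-07). *Hoxc5* had 0.768 to 3.30 CPM (median 2.71) in fibroblasts and 5.40 to 12.7 CPM (median 9.72) in adipocytes, a log2 fold change of -1.89 (SE 0.24, edgeR adjusted p = 2.71e-06). *Hoxa4* (log2 fold change -1.55, SE 0.30) had no overlap between the groups either. *Hoxc5* shares 166 exonic bases with *Hoxc10*, which is 5.37% of its exon length.

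The remaining differences were smaller or overlapped in range. *Hoxa10* was lower in fibroblasts in 8 of 8 pools, with 1.40 to 3.87 CPM (median 1.90) against 3.64 to 9.80 CPM (median 7.33) in adipocytes (log2 fold change -1.55, SE 0.23, edgeR adjusted p = 1.94e-05). *Hoxa5* had 3.27 to 7.73 CPM (median 4.76) in fibroblasts and 4.37 to 18.7 CPM (median 12.4) in adipocytes, with a log2 fold change of -1.10 (SE 0.27, edgeR adjusted p = 0.00199). It was the most variable of the high adipocyte genes, with 4.37 CPM in estrus replicate 1 and 5.0 CPM in diestrus replicate 2, against 9.59 to 18.7 CPM in the other 6 adult libraries. *Hoxc9*, which like *Hoxc8* is used as a marker of white fat in mice, was lower in fibroblasts by a log2 fold change of -0.71 (SE 0.18, edgeR adjusted p = 0.00214).

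*Hoxb9* was the highest of the genes enriched in fibroblasts. Its adult fibroblast libraries had 8.68 and 15.4 CPM in proestrus, 12.8 and 15.1 in estrus, 13 and 7.88 in metestrus and 12.0 and 14.2 in diestrus. The adipocyte libraries had 2.79 and 4.98 CPM in proestrus, 2.76 and 4.10 in estrus, 4.26 and 3.21 in metestrus and 6.32 and 6.54 in diestrus. The ranges did not overlap, and the log2 fold change was 1.60 (SE 0.23, edgeR adjusted p = 2.36e-06). *Hoxb2* was higher in fibroblasts in 8 of 8 pools (log2 fold change 0.68, SE 0.15, edgeR adjusted p = 0.000439).

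*Hoxd10*, known in human breast cancer as a target of miR-10b, showed the largest rise in fibroblasts among the members tested and also a wide spread within them. It passed the low-count filter through fibroblasts alone, since no library of another population was above 1 CPM, which favoured a high rank. Its fibroblast libraries had 1.04 and 3.31 CPM in proestrus, 1.09 and 1.60 in estrus, 0.386 and 0.506 in metestrus and 1.30 and 4.08 in diestrus, against 0.0869 to 0.625 CPM (median 0.363) in adipocytes. Fibroblasts were higher in 8 of 8 pools although the ranges overlapped, since metestrus was lowest in both populations (log2 fold change 2.30, SE 0.45, edgeR adjusted p = 0.000356). The pubertal libraries gave 2.70 and 2.96 CPM in fibroblasts and 0.234 and 0.653 CPM in adipocytes, and *Hoxd10* was the other pubertal call (log2 fold change 2.55, SE 0.69, edgeR adjusted p = 0.0316). Both pubertal calls rested on single libraries, since 0 members were called without either pubertal fibroblast library, *Hoxc8* was not called without either pubertal basal library or without adipocyte replicate 2, and *Hoxd10* was not called without adipocyte replicate 1. In the adult, *Hoxd9* was higher in fibroblasts in 7 of 8 pools (log2 fold change 1.14, SE 0.32, edgeR adjusted p = 0.00425).

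Adipocyte libraries held fibroblast markers at 15.7% of the fibroblast level, and fibroblast libraries held adipocyte markers at 2.02% of the adipocyte level. The part of this mixture in the differences was not tested. *Hoxb4* (log2 fold change -0.39, SE 0.15, edgeR adjusted p = 0.0195) was lost in 3 of the 32 fits that left out 1 library.

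*Hoxc8*, *Hoxa4*, *Hoxa5* and *Hoxa7*, but not *Hoxa10*, carry sequence matches to miR-196, a microRNA encoded within the Hox clusters themselves and known in mice to act on *Hoxc8* and *Hoxb8*. The mature sequences, from RefSeq (GRCm38.p6), are shown because their seed (bases 2 to 8, in capitals) is what a target site pairs with. The miR-196a sequence is encoded at chr11:96265187-96265208 (plus strand, Hoxb cluster) and at chr15:102973365-102973386 (plus strand, Hoxc cluster), and miR-196b at chr6:52230129-52230150 (minus strand, Hoxa cluster). The seeds are identical.
miR-196a-5p: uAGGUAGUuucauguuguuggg
miR-196b-5p: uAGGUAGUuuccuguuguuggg

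Matches to this seed (ACTACCT, read on the strand of the transcript) were searched in the 3′ untranslated end of 1 transcript per gene. They occurred in 8 of 39 Hox genes (20.5%), against 6.07% of 20981 genes. Single sites of genes that were called are printed in GRCm38 with the match in capitals. They lie at chr15:102992976-102992997 and chr15:102993733-102993754 (plus strand) for *Hoxc8*, at chr6:52215210-52215231 (minus strand) for *Hoxa7*, which holds 4 sites in all, at chr6:52202118-52202139 (minus strand) for *Hoxa5* and at chr6:52190066-52190087 (minus strand) for *Hoxa4*.
Hoxc8 first site: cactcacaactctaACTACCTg
Hoxc8 second site: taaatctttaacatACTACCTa
Hoxa7: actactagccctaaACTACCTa
Hoxa5: atatttttattcaaACTACCTa
Hoxa4: agcactggccatcgACTACCTt

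Of the 8 genes with a match, 7 were tested, of which 4 were lower and 0 higher in adult fibroblasts, with a median log2 fold change of -1.10 and a range of -2.57 to 0.18. The genes with no match were 19, of which 4 were lower and 4 higher, with a median of 0.07. Of all genes, 39.2% were called lower and 39.1% higher in this comparison. *Hoxb8*, named above as a gene on which miR-196 acts, had no exact match and is among these 19 (log2 fold change -0.42, SE 0.29, not called). The search for exact matches can therefore leave out known targets. *Hoxb6*, *Hoxb7* and *Hoxa9* carry a match and were not called. These counts are a description without a test, mature microRNAs were not measured in these polyA libraries, and a match of 7 letters does not show a site in use. For comparison, miR-10, from the Hoxb and Hoxd clusters, had a seed match (ACAGGGT) in 4 of 39 Hox genes (10.3%) and in 12.3% of all genes.

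Across the estrous cycle the Hox genes that were called lay in adipocytes of diestrus. No member was called by edgeR in any of the 6 pairwise comparisons of stages in any population. Of all genes, 0.0801% were called in adipocytes, all of them in diestrus against estrus, 0.0247% in basal cells, all in metestrus against proestrus, and none in fibroblasts. In luminal cells 0.0569% were called in estrus, 0.195% in metestrus and 0.252% in diestrus, each against proestrus, and 0.309% in at least 1 pair. Each of these fits used the libraries of a single cell type. The paper, by contrast, reports that genes changing between stages were most numerous in adipocytes and fibroblasts. For adipocytes it reports many such genes in every pair with diestrus. The cause of this difference was not tested. The low shares given here therefore do not show that the stroma is stable over the cycle. At an unadjusted p under 0.05 in at least 1 pair were 5 of 26 tested members in fibroblasts, 13 of 25 in adipocytes, 0 of 3 in basal cells and 2 of 3 in luminal cells. Of all genes, a single pair had 1115 to 3048 of 13068 at such a p in fibroblasts and 249 to 3907 of 13726 in adipocytes. In basal cells it had 761 to 2785 of 12122, and in luminal cells 796 to 1554 of 12306. The share of all genes in at least 1 pair is not given here. DESeq2 called 6 members in a pair of stages in adipocytes and 0 in the other 3 populations. Its share of all genes is not given here, and these 6 cannot be set against the shares called by edgeR. With 1 stage set against the other 3 averaged, edgeR called 4 of 25 tested members in adipocytes of diestrus, all lower, where 11% of all genes were called and 3.52% were called lower. The median log2 fold change in this comparison was -0.66 for the members tested and -0.04 for all genes.

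**Figure D4:**
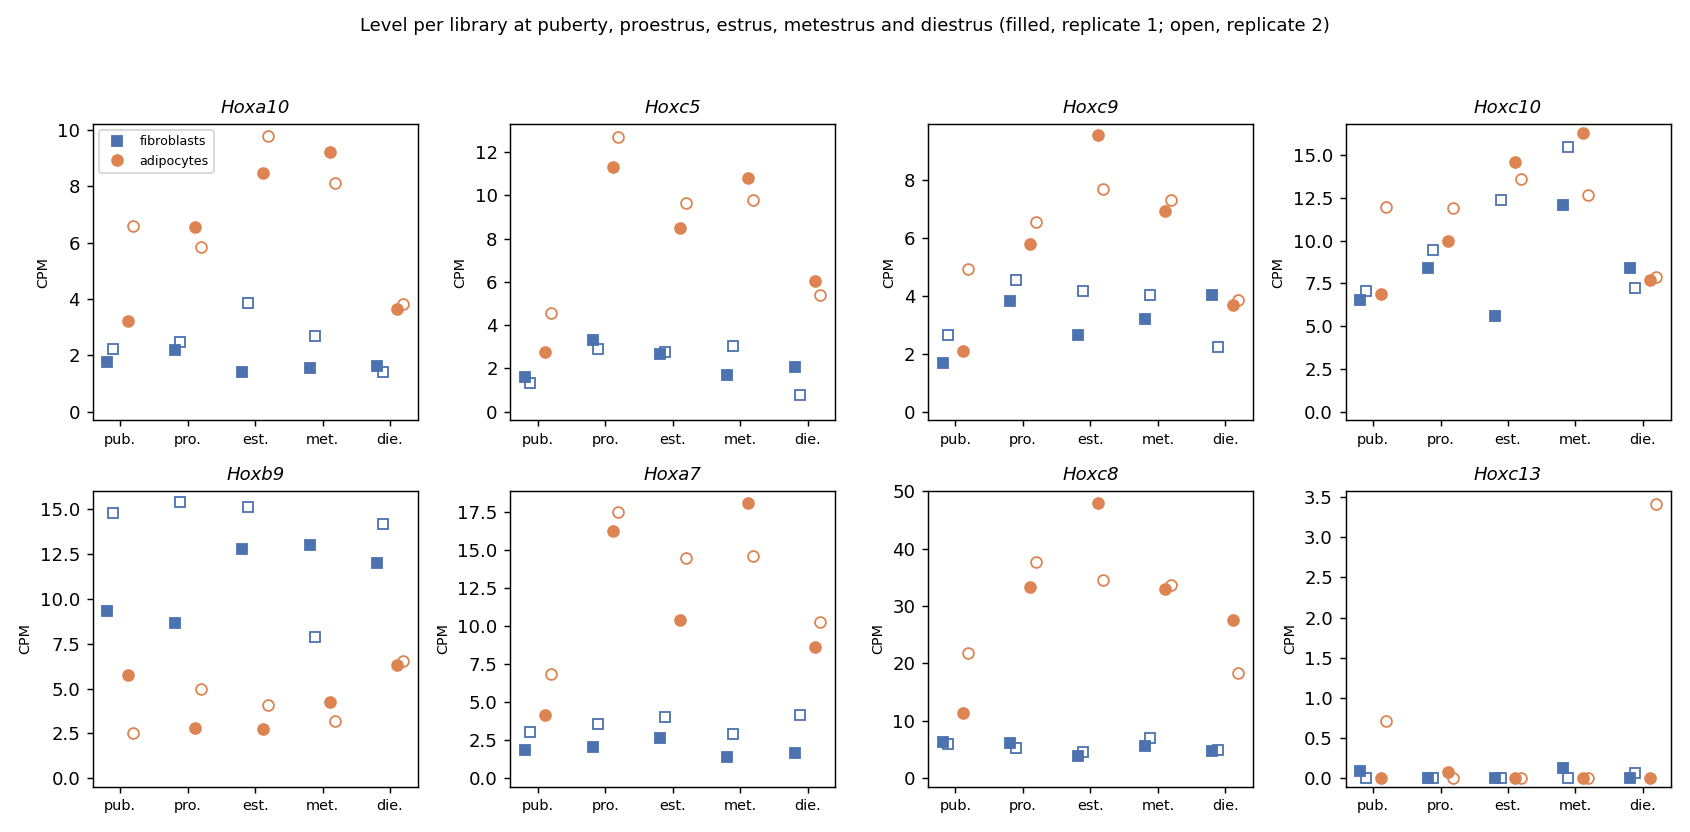
CPM of 8 Hox genes at puberty (pub.), proestrus (pro.), estrus (est.), metestrus (met.) and diestrus (die.) in fibroblasts (blue squares) and adipocytes (orange circles), with replicate 1 filled and replicate 2 open. In adipocytes both diestrus libraries lie below the other 6 adult libraries for *Hoxa10*, *Hoxc5*, *Hoxc9* and *Hoxc10* and above them for *Hoxb9*, and *Hoxc13* is high in 1 adult library.

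*Hoxa10*, a posterior Hoxa gene that in mice is needed in the uterus and responds to its hormones, had 6.56 and 5.86 CPM in proestrus, 8.47 and 9.80 in estrus, 9.21 and 8.11 in metestrus and 3.64 and 3.81 in diestrus (log2 fold change of diestrus -1.07, SE 0.17, edgeR adjusted p = 0.0275). *Hoxc5* had 11.3 and 12.7 CPM in proestrus, 8.47 and 9.64 in estrus, 10.8 and 9.80 in metestrus and 6.02 and 5.40 in diestrus (log2 fold change -0.85, SE 0.14, edgeR adjusted p = 0.0292). Both genes were lowest in the diestrus libraries without overlap.

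*Hoxc9* had 5.80 and 6.56 CPM in proestrus, 9.56 and 7.71 in estrus, 6.95 and 7.31 in metestrus and 3.69 and 3.86 in diestrus (log2 fold change -0.92, SE 0.18, edgeR adjusted p = 0.0353). *Hoxc10*, the highest Hox gene of adult fibroblasts, had 10.0 and 11.9 CPM in proestrus, 14.6 and 13.6 in estrus, 16.3 and 12.7 in metestrus and 7.69 and 7.90 in diestrus (log2 fold change -0.73, SE 0.15, edgeR adjusted p = 0.0376). *Hoxc8* (18.4 and 27.6 CPM in diestrus, 33.0 to 47.9 in the other stages) and *Hoxa7* (8.64 and 10.3 CPM, 10.4 to 18.1 in the other stages) were also without overlap but were not called (edgeR, adjusted p = 0.0707 and 0.0658).

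*Hoxb9* went the other way and was not called, with 6.32 and 6.54 CPM in diestrus and 2.76 to 4.98 CPM in the other stages (log2 fold change 0.82, SE 0.27, edgeR adjusted p = 0.0924). Diestrus replicate 2 is the library with epidermal and basal markers, and diestrus replicate 1 held 2143 CPM of the 12 luminal markers, against 287.2 to 580.5 CPM in proestrus, estrus and metestrus. The part of these cells in the diestrus values was not tested. The 4 calls were not firm: leaving out any 1 of the proestrus, estrus or metestrus libraries or diestrus replicate 2 left 0 members called, while with the replicate number as a block 0 were called (adjusted p 0.0773 to 0.0897 by edgeR) and without diestrus replicate 1 there were 3 (*Hoxa10*, *Hoxc5* and *Hoxc8*, all lower). A difference between adipocytes and fibroblasts in the change at diestrus was not called for any of the 4 genes, where 6.96% of all genes were called. On the log2 scale, adipocytes minus fibroblasts, this difference was -0.34 for *Hoxa10* (SE 0.53), 0.19 for *Hoxc5* (SE 0.55), -0.59 for *Hoxc9* (SE 0.42) and -0.25 for *Hoxc10* (SE 0.38), with adjusted p of 0.45 to 0.898 by edgeR.

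In fibroblasts edgeR called no member and no other gene in a comparison of 1 stage with the other 3 (0 of 13068 genes). DESeq2 called 0 members there, and 5 of 26 had an unadjusted p under 0.05 by edgeR in at least 1 stage. Of all 13068 genes, 980 to 2715 had such a p in a single stage. Stage means of *Hoxd10* spanned 0.446 to 2.69 CPM, of *Hoxb5* 0.811 to 2.70 CPM and of *Hoxb8* 0.863 to 2.72 CPM. *Hoxd10* in metestrus (0.386 and 0.506 CPM) lay below the other 6 libraries (1.04 to 4.08 CPM), with an unadjusted p of 0.0201 and an adjusted p of 0.236 by edgeR. *Hoxd9* had 2.03 and 4.82 CPM in proestrus, 6.70 and 3.01 in estrus, 2.31 and 1.23 in metestrus and 2.60 and 6.61 in diestrus, so that the replicates of a stage differed as much as the stages.

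The 3 Hox genes tested in the epithelium, *Hoxb2*, *Hoxb3* and *Hoxb4*, were not called in any comparison of 1 stage with the other 3, by edgeR or by DESeq2, in basal or luminal cells. Of all genes, edgeR called 0.00825% in proestrus and 1.21% in estrus of basal cells, 1.22% in at least 1 stage, and in luminal cells 0.471%, all in proestrus. At an unadjusted p under 0.05 by edgeR in at least 1 stage were 0 of 3 members in basal and 2 of 3 in luminal cells. Of all genes, a single stage had 985 to 2995 of 12122 at such a p in basal and 1011 to 1703 of 12306 in luminal cells. In luminal cells *Hoxb2* had 8.16 and 7.56 CPM in proestrus, 7.83 and 8.41 in estrus, 7.96 and 6.84 in metestrus and 6.94 and 5.54 in diestrus. *Hoxb4* had 2.72 and 3.37 CPM in proestrus, 3.50 and 2.59 in estrus, 1.97 and 2.21 in metestrus and 3.47 and 3.75 in diestrus, and metestrus lay below the other 6 libraries without being called (edgeR, adjusted p = 0.573). *Hoxb3* in basal cells had 6.85 and 7.57 CPM in proestrus, 4.60 and 9.30 in estrus, 4.94 and 6.0 in metestrus and 6.45 and 4.34 in diestrus.

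Adult libraries were then compared with pubertal libraries of the same population. In fibroblasts 1 of 26 tested members was called, *Hoxb2*, with 5.14 to 10.4 CPM in the 8 adult libraries and 4.56 and 4.59 CPM in the 2 pubertal ones (log2 fold change 0.78, SE 0.24, edgeR adjusted p = 0.0225), where 23.9% of all genes were called. The median of all genes in this comparison was shifted by 0.12. In adipocytes 3 of 26 were called, all higher in the adult, where 23.5% of all genes were called and the median of all genes was -0.12.

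These were *Hoxa7*, *Hoxc5* and *Hoxc8*, 3 of the genes that were lower in adult fibroblasts than in adult adipocytes. Both comparisons used the same adult adipocyte libraries, so this overlap is not independent. *Hoxc8* had 18.4 to 47.9 CPM (median 33.5) in the adult adipocytes and 11.4 and 21.8 CPM in the pubertal ones (log2 fold change 0.88, SE 0.27, edgeR adjusted p = 0.0203), and the ranges overlapped only through diestrus replicate 2. *Hoxc5* had 5.40 to 12.7 CPM in the adult and 2.75 and 4.57 CPM in the pubertal adipocytes (log2 fold change 1.20, SE 0.39, edgeR adjusted p = 0.0337). *Hoxa7* had 8.64 to 18.1 CPM in the adult and 4.16 and 6.85 CPM in the pubertal adipocytes (log2 fold change 1.20, SE 0.41, edgeR adjusted p = 0.0427). The pubertal adipocyte libraries held 9282 and 18320 CPM of the fibroblast markers, against 3623 to 7596 CPM in the adult ones, and the part of this difference in the calls was not tested.

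With both adipocyte libraries that held high epidermal markers left out, an alternative chosen after seeing the data, 4 members were called in adipocytes, and the log2 fold change of *Hoxc8* was 1.52 (edgeR, adjusted p = 0.00249). Without the pubertal adipocyte replicate 1 none of the 3 genes was called in adipocytes (edgeR, adjusted p 0.261 to 0.318), and *Hoxb2* in fibroblasts was called in 27 of 40 fits that left out 1 library and in neither fit without a pubertal fibroblast library. The age difference was not called different between fibroblasts and adipocytes for any of the 26 members, where 13% of all genes were called. The difference of the differences for *Hoxc8*, fibroblasts minus adipocytes, was -1.01 (edgeR, adjusted p = 0.0752). In basal cells 2 of 26 members were called lower in the adult, where 34.3% of all genes were called. They were *Hoxc8*, with 2 counts in the 8 adult and 8 counts in the 2 pubertal libraries (edgeR, adjusted p = 0.000489), and *Hoxb6*, with 0 and 2 counts (edgeR, adjusted p = 0.0408), whose call was lost by DESeq2. In luminal cells edgeR called 0 of 26 members, 0 had an unadjusted p under 0.05 and DESeq2 called 0. Of all 15356 genes, edgeR called 13.4% in luminal cells, and 4282 had an unadjusted p under 0.05. There 16 of the 26 had at most 5 counts and p of 0.999 or above, so that 10 could have been called, and in basal cells 7 of 26 were in the same position.

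The partners and regulators of the Hox proteins were counted list by list. Of the 9 Hox cofactors of the TALE class (Pbx, Meis and Pknox genes) 8 were tested between adult non-epithelial and epithelial cells, and edgeR called 4 higher and 1 lower, where 81.6% of all genes were called. *Meis2* was the one with a Hox-like pattern, at 19.8 ± 5.18 CPM in fibroblasts and 13.7 ± 3.38 CPM in adipocytes, against 0.0353 ± 0.0437 CPM in basal and 0.110 ± 0.0874 CPM in luminal cells (SD, n = 8 each, log2 fold change 8.15, edgeR adjusted p = 4.07e-19). Between basal and luminal cells 3 cofactors were higher and 4 lower in basal cells by edgeR, where 73.6% of all genes were called. In fibroblasts 6 of the 8 were higher and 1 lower than in adipocytes, where 78.4% of all genes were called and 39.1% were called higher, *Pknox2* most significantly (log2 fold change 1.97, edgeR adjusted p = 2.86e-11).

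All 26 Polycomb and trithorax genes of the list, which silence and maintain Hox genes, were tested. Between non-epithelial and epithelial cells edgeR called 6 of them higher and 19 lower, where 41.5% of all genes were called higher and 40.2% lower, with a median log2 fold change of -0.55 against 0.02 for all genes. Of 17 genes of the retinoic acid axis, a pathway known to switch on anterior Hox genes in embryos, 15 were tested, 9 higher and 5 lower in non-epithelial cells, against the same 81.6% of all genes called. Among them *Rarb*, a receptor, was at 6.32 ± 3.33 CPM in fibroblasts and 10.1 ± 3.34 CPM in adipocytes, against 0.0925 ± 0.0508 CPM in basal and 0.0722 ± 0.0841 CPM in luminal cells (log2 fold change 6.52, edgeR adjusted p = 1.10e-14).

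RNAs from within or beside the clusters were compared in the same way. Of 22 non-coding RNAs of the clusters 5 passed the filter, and 3 were higher in the non-epithelial cells and 1, *Hoxb3os*, lower. Of all genes, 41.5% were called higher and 40.2% lower, and an RNA could pass the filter on its stromal level alone. *Hotairm1*, of the Hoxa cluster, had 1.72 ± 0.627 CPM in fibroblasts and 2.21 ± 0.931 CPM in adipocytes, with 1 count in the 8 basal and 0 counts in the 8 luminal libraries (edgeR, adjusted p = 2.80e-10). *Halr1* was lower in fibroblasts (0.129 ± 0.0689 CPM) than in adipocytes (1.69 ± 0.786 CPM), a log2 fold change of -3.72 (edgeR, adjusted p = 8.43e-06). Of the 15 genes that flank the clusters 10 were tested between non-epithelial and epithelial cells, with 5 higher and 3 lower, where 81.6% of all genes were called. Their median log2 fold change was 0.07, against 0.02 for all genes.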

How the data were processed

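RNA was measured by single-end 65 bp sequencing of stranded polyA libraries from 40 samples. The authors aligned the reads to GRCm38/mm10 with TopHat 2.1 and Bowtie 1.1.0 and counted them per Ensembl gene with HTSeq-count, and the values deposited and used here are raw counts. The annotation release and the strand setting of the counting are not given in the sources used here. Values of 2 genes are not reported here, although counts over members and lists include them. The deposited log2 tables derived from these counts were not used.

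Symbols were found for 24739 of 25044 adult and 23989 of 24268 pubertal IDs. After a filter of more than 1 CPM in 2 or more of the libraries fitted, genes were tested with edgeR 4.0.16 (TMM scaling, quasi-likelihood F-test, limma 3.58.1, R 4.3.3) over all genes, and a gene was called at a Benjamini-Hochberg adjusted p under 0.05. Cell types were compared over the 32 adult or the 8 pubertal libraries, stages within 1 cell type, and ages over all 40 libraries. The scripts were tested on simulated data. Folds against 0 counts used a floor of 3 counts, and intervals (95%) cover counting error only. A library is 1 pool of mice, so p-values measure the spread between pools.

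Members and gene lists were chosen with earlier results of these data known. Every member could be named, with full values for those at 5 RPKM or more in a population or called in a stage comparison, and at most 4 genes per other list and comparison, those with the smallest adjusted p. Adult populations with the same stage and number came from the same pool, as the study's methods state, so that these numbers pair the cell types. The deviations of same-pool libraries correlated by -0.085 to 0.3 (median 0.085, 24 pairs). Alternatives were DESeq2 1.42.0, its size factors in edgeR, a replicate block, no filter, stages fitted over all adult libraries jointly, the newer quasi-likelihood method, longest transcripts for RPKM, and leaving out each library.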

Additional observations from a re-analysis of the deposited data

Results flagged for a closer look

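In 58 groups of 8 adult libraries, each 1 Hox gene in 1 population, the highest or lowest library was set against the rest, and 4 stood apart by Dixon's criterion, which chance meets in about 1 in 20 groups. *Hoxb5* was at 3.43 CPM in fibroblasts of estrus replicate 1, against 0.695 to 1.97 CPM in the other 7 libraries. *Hoxc4* was at 2.72 CPM in fibroblasts of diestrus replicate 2, against 4.50 to 5.71 CPM. *Hoxc6* was at 19.9 CPM in fibroblasts of metestrus replicate 2, against 6.97 to 11.7 CPM. *Hoxc13* was at 3.41 CPM in adipocytes of diestrus replicate 2, against 0 to 0.0754 CPM, and this library held 1947 CPM of epidermal markers, whose part in the value was not tested.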

How the results depend on the processing

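Counts of called members stayed within 1.5 times under the other settings for the comparisons of cell types, with 25 to 28 members called between adult non-epithelial and epithelial cells, 12 to 14 between adult fibroblasts and adipocytes and 5 between adult basal and luminal cells. The counts for stage and age were less stable, and the cause was not tested. With DESeq2 there were 6 calls in stage pairs and 7 in single stages in adipocytes, and for age 2 in fibroblasts and 1 in basal cells. The shares of all genes that DESeq2 called are not given here. Without the filter on low counts there were 2 calls in stage pairs and 2 in single stages in fibroblasts, 2 in single stages in adipocytes, 1 in single stages in luminal cells (*Hoxc13*), and for age 0 in fibroblasts and 1 in basal cells. The newer quasi-likelihood method gave 2 age calls in fibroblasts and 1 in basal cells, and the joint fit gave 2 in stage pairs and 2 in single stages in adipocytes. With the replicate block, 0 members were called in single stages in adipocytes, where the number stands for earlier or later mice or for cell number. Over all genes, the deviations of libraries with the same number and cell type correlated between stages by -0.677 to 0.43 (median -0.018), above 0.1 in 6 of 24 pairs. The Hox sums of the fibroblast libraries split by number in all 4 stages, as given above. For the paired cell types the block moved no count by over 1.5 times. With longest transcripts 2 members reached 1 RPKM in basal cells, against 1.

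Leaving out each library in turn gave 25 to 26 calls between adult non-epithelial and epithelial cells, 11 to 14 between fibroblasts and adipocytes and 3 to 5 between basal and luminal cells. At puberty it gave 19 to 22, 0 to 4 and 1 to 2 for the same comparisons. In adipocytes it gave 0 to 4 in stage pairs and 0 to 3 in single stages. For age it gave 0 to 2 in fibroblasts, 0 to 4 in adipocytes, 1 to 3 in basal cells and 0 in luminal cells. Of 397 values of single genes under other settings, 14 lost their call and 0 reversed, and of 156 under left-out libraries 19 lost it and 0 reversed. For most genes with few counts in the epithelium edgeR could not call a difference. Between adult basal and luminal cells, 20 of 26 members had at most 9 counts in either cell type and p of 0.999 or above by edgeR. A missing call does not show equal levels for these genes, and *Hoxb6* was called there with 0 against 8 counts.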
